A study of Tachysurus fulvidraco x Tachysurus vachelli with 6 samples.

Results

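LOC113634240 is annotated as CD59 glycoprotein-like, and it was chosen by its gene name as 1 of 2451 complete gene rows, with its difference between the groups already known. No other gene of the table carried CD59 in its description. The table's counts are only a part of the mapped reads that the study states, so genes outside it were not seen. LOC113634240 was followed in the skin of juvenile hybrid yellow catfish (Tachysurus fulvidraco♀ × P. vachellii♂), sampled on the left side behind the dorsal fin. There were 3 libraries from fish after 16 h of simulated transport and 3 libraries from untreated control fish. Transported fish had been starved, sealed in oxygen-filled bags of water and shaken, while control fish came from the recirculating system. Whether the control fish were also starved is not stated. Shaking, confinement, water quality and any difference in starvation cannot be told apart. Neither the labels nor the methods say how many fish went into each library, so the spread below is that between these libraries and may in part be technical.

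CD59 is a small glycoprotein of the Ly6 family that a glycosylphosphatidylinositol (GPI) anchor holds on the outer face of the cell membrane. In mammals it binds the late complement components as they assemble on a host cell and keeps them from completing the membrane attack complex, the pore that ends the complement cascade. The classical pathway of the cascade is opened by C1q, which recognises antibody and microbial surfaces. The pathways of the cascade converge on C3. Fish skin faces water microbes directly, and complement is part of the innate defence of skin and mucus.

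The table's GO terms for LOC113634240 name the mammalian role and bacterial binding. They are negative regulation of activation of the membrane attack complex, lipopolysaccharide binding, lipoteichoic acid binding, defence response to Gram-negative and to Gram-positive bacteria, cell activation, extracellular region and membrane. Of the genes in the table, 1 carried the membrane attack complex term and 1 the lipopolysaccharide term, in each case LOC113634240 itself. The gene lies on scaffold NW_020848144.1 from 787108 to 793869 on the minus strand, a locus of 6762 bases with 1 transcript record. Exon positions are not given in the table.

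LOC113634240 was among the more abundant genes of the table in skin. Its mean FPKM (fragments per kilobase of transcript, scaled to library depth) ranked 82 of the 1620 genes that averaged 0.5 FPKM or more, whose median was 5.28. Its read counts were 2743 to 6240 per library, so counting error came to at most 1.91% of a value and was small beside the spread between libraries.

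The gene was lower after transport in every library. Its FPKM was 42.5, 48.4 and 44.2 in transport replicates 1, 2 and 3, against 56.8, 98.6 and 81.2 in control replicates 1, 2 and 3. The highest transport library lay 8.4 FPKM below the lowest control library, so the groups did not overlap. The mean was 45.0 ± 3.03 FPKM in transported skin and 78.8 ± 21.0 FPKM in control skin (SD, n = 3 each), which put the transport mean at 57.1% of the control mean. The log2 ratio of these means was -0.81. In the same FPKM values the groups did not overlap in 27.8% of the 1620 genes, with transport lower in 3.7%. Since the gene was chosen on this contrast, the values are a description and were not tested. In bulk skin, fewer cells that carry a transcript and less transcript per cell cannot be told apart.

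The transport libraries were closer to each other than the control libraries. The coefficient of variation of the FPKM was 6.72% over the transport libraries and 26.7% over the control libraries. Over the whole table, the chi-square per gene of the counts of library pairs was 40.6 to 156 in transport and 312 to 608 in control. Genes with many reads weigh most in this mean, so it does not tell how many genes had the wider control spread. Part of the control spread came with control replicate 1, which had the smallest scaling factor. The factors, computed by the trimmed mean of M-values (TMM), were 1.17, 1.05 and 1.13 in transport replicates 1, 2 and 3, against 0.712, 0.968 and 1.04 in control replicates 1, 2 and 3. Dividing by them gave 36.2, 45.9 and 39.3 FPKM in transport replicates 1, 2 and 3, against 79.7, 102 and 77.8 FPKM in control replicates 1, 2 and 3. On that scale the coefficients of variation were 12.3% over the transport libraries and 15.5% over the control libraries, and the gap between the groups widened to 31.9 FPKM. On the scaled values, transport was lower with no overlap in 10.9% of the 1620 genes and higher with no overlap in 13%. The mean was 40.5 ± 4.99 in transported skin and 86.5 ± 13.4 in control skin (SD, n = 3 each), or 46.8% of control.

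**Figure D1:**
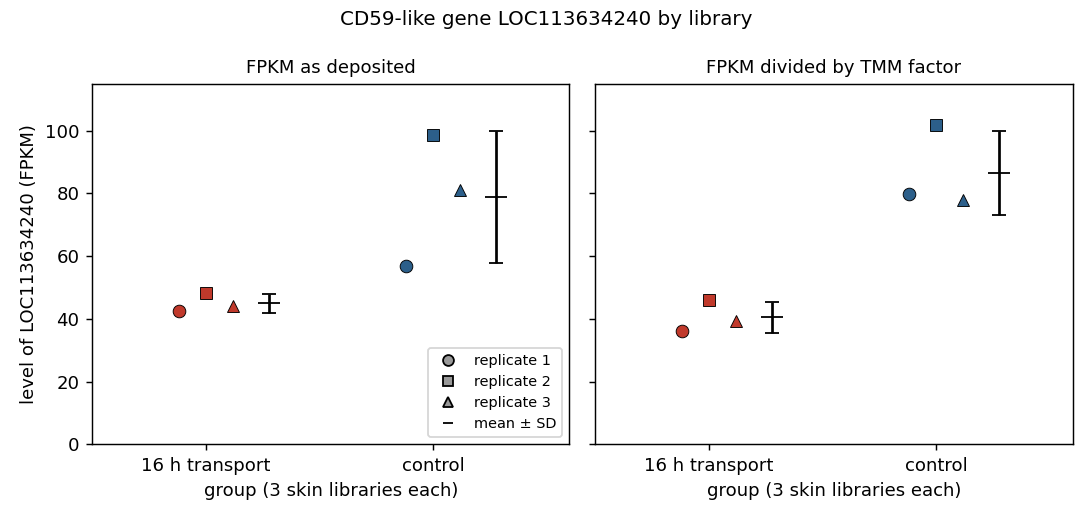
Level of LOC113634240 in each of the 3 transport (red) and 3 control (blue) skin libraries, as deposited FPKM (left) and divided by the TMM factor of the library (right), on an axis that starts at 0; bars are mean ± SD. The transport libraries lie at 42.5 to 48.4 FPKM and the control libraries at 56.8 to 98.6 FPKM as deposited, and control replicate 1 moves to 79.7 after scaling.

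The fitted log2 fold change of LOC113634240, from edgeR's model on the counts of all 1620 genes, was -1.10 with TMM factors and -0.81 with mapped reads alone. The factors moved the median log2 fold change of all genes by -0.30, to -0.02 with them, against 0.27 without them. Set against the median of all genes, the CD59-like gene stood at -1.08 with the factors and at -1.09 without them. The factors shift all genes by about the same amount, so this likeness follows from subtracting the median and is no separate result. Leaving out each library in turn gave -1.19 to -0.98. The gene's rank by FPKM was 125, 103 and 113 of the 1620 genes in transport replicates 1, 2 and 3, against 65, 47 and 54 in control replicates 1, 2 and 3, and a rank within a library carries no scaling between libraries.

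Ratios within a library also carry no scaling, and they separated the groups. The neighbouring gene psmc3, an ATPase subunit of the proteasome, had the least variable ratios over the transport libraries. LOC113634240 was 1.01, 0.941 and 1.02 times psmc3 in FPKM in transport replicates 1, 2 and 3, against 2.45, 2.26 and 2.00 times in control replicates 1, 2 and 3. The 6 psmc3 values themselves overlapped between the groups, at 42.1, 51.4 and 43.4 FPKM in transport replicates 1, 2 and 3 and at 23.2, 43.5 and 40.6 FPKM in control replicates 1, 2 and 3. The gene c1qbp codes for a mitochondrial matrix protein named as a binder of C1q. Against c1qbp, the mean ratio was 1.11 ± 0.113 in transported skin and 2.52 ± 0.190 in control skin (SD, n = 3 each). Against mtch2, a mitochondrial outer membrane protein, it was 1.10 ± 0.12 in transported skin and 2.54 ± 0.489 in control skin (SD, n = 3 each). These ratios share the CD59-like numerator and so describe the same difference again.

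**Figure D2:**
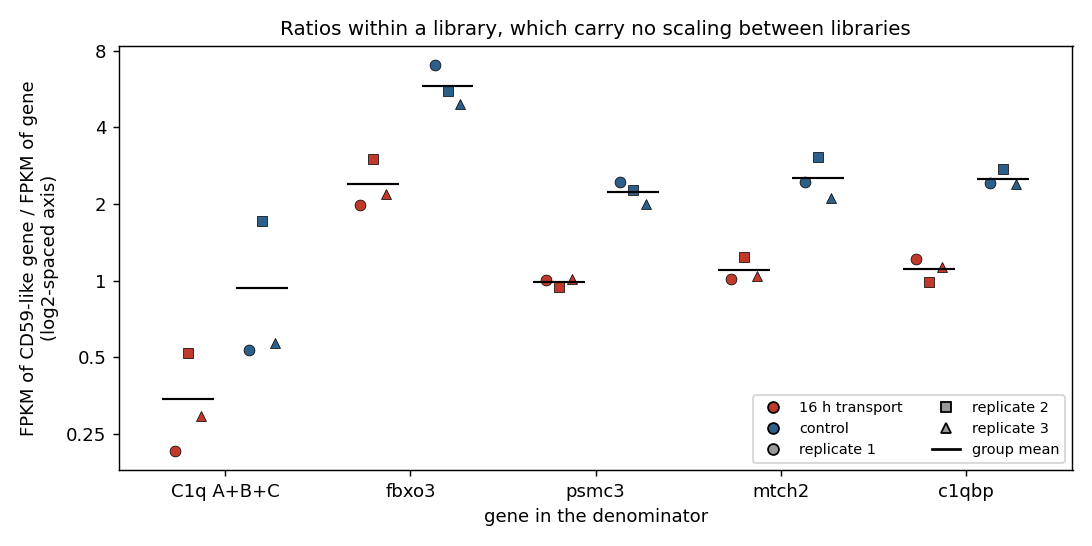
FPKM of LOC113634240 divided by that of another gene or gene sum in the same library, on a log2-spaced axis, for 3 transport (red, left of each pair) and 3 control (blue, right) libraries; lines are group means. Every transport ratio lies below every control ratio for all 5 denominators, with psmc3 at 0.941 to 1.02 in transport and 2.00 to 2.45 in control libraries.

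The genes beside LOC113634240 on the scaffold did not share its difference. The nearest genes of the table were fbxo3, an F-box protein of ubiquitin ligases, 4331 bases away on the same strand, and the apelin receptor B-like gene LOC113634253, 10753 bases away on the other side. LOC113634253 had 0 counts in every library and was not detected at this depth. The FPKM of fbxo3 was 21.4, 16.2 and 20.1 in transport replicates 1, 2 and 3, against 8.10, 17.8 and 16.5 in control replicates 1, 2 and 3, and the groups overlapped. Its log2 fold change was 0.17 ± 0.19 (SE; edgeR adjusted p = 0.662). Here and below an edgeR p comes from the quasi-likelihood test and is adjusted after Benjamini and Hochberg over the 1620 genes. For the other tested neighbours, the log2 fold change was 0.09 for mtch2, 0.08 for psmc3 and -0.07 for the zinc finger gene znf408. The estimates for psmc3 and znf408 changed sign under some alternatives. The FPKM of mtch2 was 41.8, 39.0 and 42.2 in transport replicates 1, 2 and 3, against 23.2, 32.1 and 38.6 in control replicates 1, 2 and 3. As deposited its groups did not overlap, with transport higher, as in 24.1% of the 1620 genes, and after TMM scaling they overlapped. The synaptotagmin-13-like LOC113634200 was too low to be tested, with 12, 4 and 26 counts in transport replicates 1, 2 and 3 and 0 in every control library.

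The word complement stood in the description of 12 genes, of which 7 had a mean FPKM of at least 0.5 and were tested. They hold the 3 subunits of C1q, 4 C3-like genes, a C1r-like gene, c1qbp, the C1q and tumor necrosis factor-related genes c1qtnf4 and LOC113634571, and xpc, a DNA repair gene that entered through the word complementing and is no part of the cascade. Of the 7 tested genes, edgeR called 0 at an adjusted p under 0.05, where it called 0.617% of the whole table (0.37% higher and 0.247% lower after transport). Without adjustment, p was under 0.05 in edgeR for 1 of the 7 higher, xpc, and 1 lower, c1qtnf4, where 16.9% of the table passed (7.72% higher and 9.14% lower). DESeq2 called xpc higher and c1qtnf4 lower, against 9.51% of the table (4.38% higher and 5.12% lower). limma called 0, against 0.741% of the table (0.617% higher and 0.123% lower). The median log2 fold change was 0.13 for the 7 genes and -0.02 for all genes. The mean of c1qtnf4 was 0.154 FPKM in transported skin and 1.34 FPKM in control skin. It therefore passed the filter of 0.5 FPKM only through the control libraries, and its count as lower is no separate result.

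Subunits B and C of C1q had the highest mean FPKM of the genes with complement in their description. The subunit C gene LOC113634906 had 84.4, 39.8 and 65.4 FPKM in transport replicates 1, 2 and 3, against 46.8, 27.7 and 60.6 FPKM in control replicates 1, 2 and 3. The subunit A gene LOC113634904 had 49.3, 25.2 and 36.0 FPKM in transport replicates 1, 2 and 3, against 27.9, 14.3 and 32.5 FPKM in control replicates 1, 2 and 3. The subunit B gene LOC113634955 had 64.2, 28.4 and 48.4 FPKM in transport replicates 1, 2 and 3, against 31.7, 15.5 and 50.04 FPKM in control replicates 1, 2 and 3. In all 3 subunits replicate 2 was the lowest library of its group, and the groups overlapped. Their log2 fold changes were 0.13, 0.19 and 0.19 for subunits C, A and B (standard errors 0.38, 0.39 and 0.46), with edgeR adjusted p-values of 0.881, 0.844 and 0.863 in the same order. Without transport replicate 1 or without control replicate 2 these 3 estimates were below 0.

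The 3 C1q genes lie side by side on scaffold NW_020848170.1 between 634056 and 642000, all on the minus strand, and their products join in a single hexameric protein. Their proportions varied less between libraries than their levels. The FPKM of subunit A was 0.584, 0.633 and 0.551 times that of subunit C in transport replicates 1, 2 and 3, against 0.598, 0.515 and 0.536 times in control replicates 1, 2 and 3. Subunit B was 0.762, 0.714 and 0.741 times subunit C in transport replicates 1, 2 and 3, against 0.677, 0.561 and 0.825 times in control replicates 1, 2 and 3. In both ratios the groups overlapped.

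The level of LOC113634240 relative to C1q separated the groups. It was 0.215, 0.518 and 0.295 times the summed FPKM of the 3 subunits in transport replicates 1, 2 and 3, against 0.534, 1.71 and 0.567 times in control replicates 1, 2 and 3. Transport replicate 2, at 0.518, and control replicate 1, at 0.534, were nearly level. This ratio shares the CD59-like numerator with the ratios above, so it describes the same difference again and is no separate result about C1q. C1q is made mainly by macrophages and dendritic cells in mammals. The table held 1 of the listed leukocyte markers, spi1, the gene of the myeloid factor PU.1, at 12.2, 7.77 and 9.99 FPKM in transport replicates 1, 2 and 3, against 6.39, 5.40 and 9.06 FPKM in control replicates 1, 2 and 3. Within each group spi1 ranked the libraries as C1q subunit A did, and the part of such cells in any value here was not tested.

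**Figure D3:**
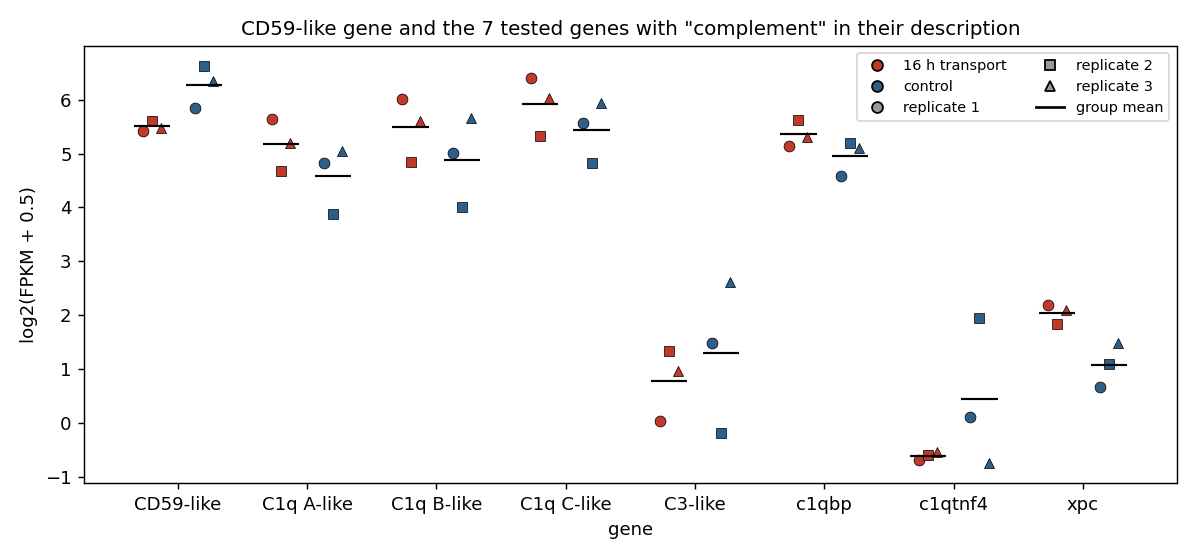
log2(FPKM + 0.5) of LOC113634240 and of the 7 tested genes with complement in their description, in 3 transport (red, left of each pair) and 3 control (blue, right) libraries; lines are group means. The CD59-like gene is lower in all 3 transport libraries, the C1q subunits overlap between groups, and xpc is higher in all 3 transport libraries.

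The C3-like genes of the table, named after the central component, were low or absent in these libraries. Of the 4 neighbouring C3-like genes, LOC113636343 was the 1 that was tested, at 0.518, 2.03 and 1.46 FPKM in transport replicates 1, 2 and 3 and 2.29, 0.370 and 5.60 FPKM in control replicates 1, 2 and 3. It varied more within the groups than between them, and its log2 fold change was -1.30 ± 0.92 (SE; edgeR adjusted p = 0.50). It was -0.60 without control replicate 3, -1.83 without control replicate 2 and -1.78 without transport replicate 2. LOC113636342 had 0 counts in all 6 libraries, LOC113636345 had 12 counts in transport replicate 3 and 4 in control replicate 3 alone, and LOC113636373 had 50 counts or fewer per library. Neighbouring copies can share reads, so the division among the 4 genes is uncertain. The gene of the protease C1r, LOC113636687, had 0, 72 and 42 counts in transport replicates 1, 2 and 3, against 43, 42 and 23 counts in control replicates 1, 2 and 3.

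The other genes named after complement differed from each other. The log2 fold change of c1qbp was 0.10 ± 0.18 (SE; edgeR adjusted p = 0.80). The DNA repair gene xpc had 4.05, 3.08 and 3.77 FPKM in transport replicates 1, 2 and 3, against 1.08, 1.62 and 2.28 FPKM in control replicates 1, 2 and 3, so the groups did not overlap, as in 24.1% of all genes in that direction. Its log2 fold change was 0.85 ± 0.19 (SE; edgeR adjusted p = 0.129, DESeq2 adjusted p = 0.00279), and without control replicate 3 the edgeR adjusted p was 0.0474. The secreted factor c1qtnf4 had 0.118, 0.159 and 0.185 FPKM in transport replicates 1, 2 and 3, against 0.578, 3.35 and 0.0926 FPKM in control replicates 1, 2 and 3. Control replicate 2 set most of its difference, since the log2 fold change was -3.36 ± 1.19 (SE; edgeR adjusted p = 0.229, DESeq2 adjusted p = 0.0229) and -1.71 without that library. Without control replicate 3, the only control library below the transport libraries, the edgeR adjusted p of c1qtnf4 was 0.0418.

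**Figure D4:**
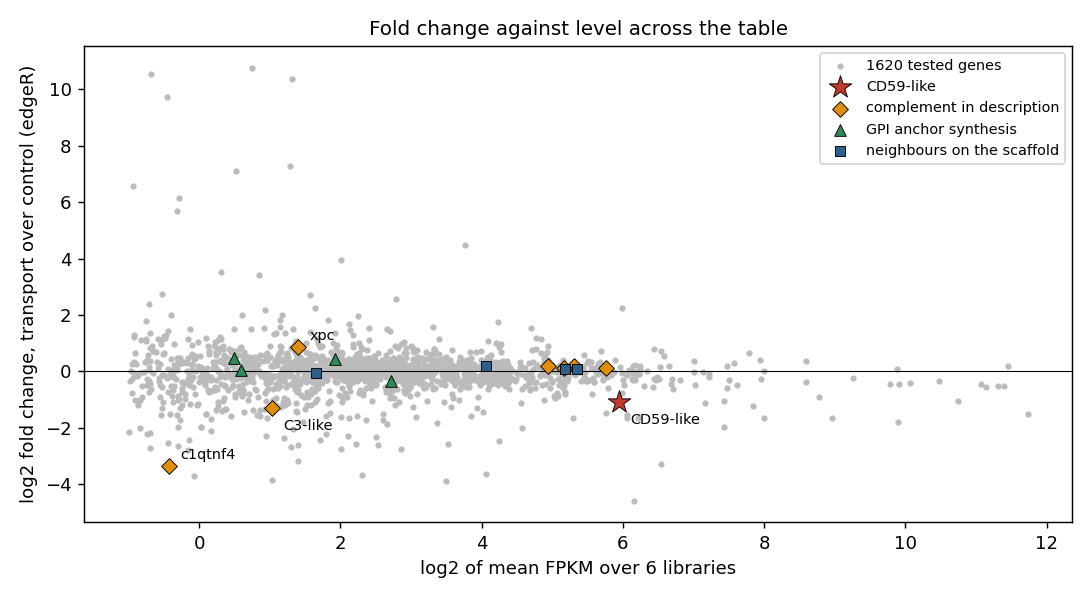
Log2 fold change (transport over control, edgeR with TMM factors) against log2 of the mean FPKM for the 1620 genes tested (grey), with LOC113634240 (star), the 7 tested genes with complement in their description (diamonds), 4 GPI anchor genes (triangles) and 4 tested neighbours on the scaffold (squares). The CD59-like gene lies at -1.10 on the vertical axis and at the right of the cloud of genes, while the C1q genes and the neighbours lie near 0.

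Genes that act with CD59 or with the cascade were taken from lists. CD59 reaches the surface on its GPI anchor, and 4 enzymes of anchor synthesis were in the table, pigo, pigw, pigb and pigg. edgeR called 0 of the 4 (0.617% of the table), with none under 0.05 before adjustment (16.9%), and DESeq2 (9.51%) and limma (0.741%) called 0, and their log2 fold changes ran from -0.34 to 0.47 with a median of 0.24. The acyltransferase gene pigw had 5.65, 4.71 and 3.80 FPKM in transport replicates 1, 2 and 3, against 2.23, 2.60 and 3.71 FPKM in control replicates 1, 2 and 3. As deposited these groups did not overlap, with transport higher, as in 24.1% of the 1620 genes, and after TMM scaling they overlapped. The log2 fold change of pigw was 0.43 ± 0.23 (SE, edgeR adjusted p = 0.39). For the mannosyltransferase gene pigb it was -0.34 ± 0.27 (SE; edgeR adjusted p = 0.552), and above 0 in limma.

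The list of coagulation and fibrinolysis matched 6 genes, 4 of them tested, with a median log2 fold change of -0.58. edgeR called 0 of the 4 (0.617% of the table), with 1 lower before adjustment (9.14%). DESeq2 called 1 lower (5.12%) and limma 0 (0.741%). That gene was plau, the urokinase-type plasminogen activator, which starts the dissolution of fibrin. It had 1.80, 1.81 and 1.10 FPKM in transport replicates 1, 2 and 3, against 3.48, 2.18 and 3.08 FPKM in control replicates 1, 2 and 3. For plau the groups did not overlap, with transport lower, as in 3.7% of the 1620 genes. Its log2 fold change was -1.27 ± 0.40 (SE; edgeR adjusted p = 0.21, DESeq2 adjusted p = 0.0415). The most abundant members were no clotting factors. LOC113636564, an RNA-binding protein named after plasminogen activator inhibitor 1, had a log2 fold change of -0.28 (about 0 under mapped reads alone), and the fibrinogen-like gene fgl1 one of -0.87 ± 0.81 (SE; edgeR adjusted p = 0.604), which was -1.94 without transport replicate 2, -0.38 without transport replicate 1 and -0.46 without control replicate 2. The fgl1 levels ran from 5.36 to 54.1 FPKM over the transport libraries and from 25.5 to 66.8 FPKM over the control libraries.

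Of the pore-forming proteins 1 was in the table, the aerolysin-like LOC113634887, a relative of bacterial pore toxins. It had 5.13, 0.967 and 4.65 FPKM in transport replicates 1, 2 and 3, against 1.48, 0 and 1.10 FPKM in control replicates 1, 2 and 3. The groups overlapped, and the log2 fold change was 1.56 ± 1.35 (SE; edgeR adjusted p = 0.575, with p above 0.05 before adjustment and no call in DESeq2 or limma). Without control replicate 1 it was 2.58, and without control replicate 2, the library at 0, it was 0.98. Of 4 acute phase and interferon genes 3 were tested, with a median of -0.27. edgeR called 0 of them (0.617% of the table), with 1 lower before adjustment (9.14%) and 0 calls in DESeq2 (9.51%) and in limma (0.741%). The lower gene was the interferon regulatory factor 4-like LOC113634347, at 1.85, 1.67 and 1.37 FPKM in transport replicates 1, 2 and 3, against 1.55, 1.79 and 5.42 FPKM in control replicates 1, 2 and 3, where control replicate 3 stood apart. Its log2 fold change was -1.08 ± 0.42 (SE; edgeR adjusted p = 0.262), and -0.49 without control replicate 3. For irf2, a transcriptional regulator of interferon genes, the log2 fold change was 0.20, and for the interferon-induced GTPase gene LOC113634713 it was -0.27, with a change of sign under mapped reads alone. The list of the wider complement system added to the genes with complement in their description no gene other than LOC113634240, and the Ly6 family list held LOC113634240 alone.

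Markers of the cell types that skin can hold were summed per library. For the epidermis, 3 listed genes summed to 33.3 to 48.4 FPKM over the transport libraries and 7.37 to 21.7 FPKM over the control libraries. Envoplakin (evpl) was the larger part of that sum in every library, though only narrowly in control replicate 1. It had 47.7, 30.4 and 41.7 FPKM in transport replicates 1, 2 and 3. In control replicates 1, 2 and 3 it had 3.93, 11.9 and 19.7 FPKM. The claudin-4-like gene LOC113636370, the other tested member, had 0.735, 2.88 and 1.52 FPKM in transport replicates 1, 2 and 3. In control replicates 1, 2 and 3 it had 3.45, 2.25 and 1.98 FPKM. For pigment cells, 2 genes summed to 1.55 to 3.22 FPKM over the transport libraries and 3.61 to 7.98 FPKM over the control libraries. Of these genes, tyrp1 was apart between the groups and mlph overlapped. The FPKM of mlph was 1.04, 1.73 and 1.31 in transport replicates 1, 2 and 3, against 1.81, 2.33 and 1.54 in control replicates 1, 2 and 3. In these sums, as for LOC113634240, the groups did not overlap, and the part of these cells in its difference was not tested. Among the 1620 single genes, the groups did not overlap with transport higher in 24.1% and with transport lower in 3.7%. Groups overlapped in the sums for leukocytes (1 gene), endothelium (1 gene), mucous cells (3 genes), skeletal muscle (5 genes) and dermis (3 genes). The skeletal muscle sum was 2432 to 4425 FPKM over the transport libraries and 2248 to 11053 FPKM over the control libraries, with the highest value in control replicate 1. Of the markers in these lists, edgeR called 0. Before adjustment the plakin gene evpl and the mucin-2-like gene LOC113635236 were higher. Lower before adjustment were the myosin light chain gene LOC113636534 and tyrp1 of melanin synthesis. DESeq2 called these 4, while limma called 0. They were 1 of 2 tested epidermis markers, 1 of 3 for mucous cells, 1 of 5 for muscle and 1 of 2 for pigment. The mucin-2-like gene averaged 4.87 FPKM in transported and 0.0202 FPKM in control skin, so it passed the filter only through transport libraries. Log2 fold changes were -0.0087 for agr2 and -0.14 for muc15, the other mucous cell markers, and -1.81 to 0.73 over the muscle markers. Over the table the shares were 0.617% in edgeR, 16.9% before adjustment, 9.51% in DESeq2 and 0.741% in limma. None of the listed markers in the table was at 0 in every library, and the erythrocyte list, whose cells carry CD59 in mammals, matched 0 genes here.

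The genes whose levels followed LOC113634240 most closely were ranked by Pearson's r of log2(FPKM + 0.5) over the 6 libraries. Of 1619 other genes, 19 had an r of at least 0.9 and 17 an r of at most -0.9. The closest were LOC113635217, which has no description (r = 0.980), LOC113636173, named after an actin filament-associated protein (0.973), the mitotic-spindle organizing protein 2-like gene LOC113634488 (0.973), the multidrug resistance-associated protein 1-like gene LOC113635768 (0.969), an ABC transporter, and the notch 1-like receptor gene LOC113634548 (0.969). As in the CD59-like gene, the transport libraries all lay below the control libraries in these 5, as in 3.7% of the 1620 genes. Control replicate 1 was the lowest control library in each of them. Ranking by r over these same libraries picks both traits, so they are no further result. The libraries fall into groups, so the difference between groups is a part of each r. Of the deviations from the group means alone, r was 0.886 for LOC113635768 and 0.955 for LOC113634548, the lowest and highest of the 5. It was also 0.967 for psmc3 and 0.954 for znf408, whose groups overlapped, so such values were not particular to the 5. For C1q subunits A, C and B it was -0.636, -0.523 and -0.497. Over the 6 libraries after TMM scaling, r was 0.971 to 0.992 for the 5 genes.

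LOC113635217 was also close in level. It had 54.7, 53.8 and 51.4 FPKM in transport replicates 1, 2 and 3, against 57.7, 85.9 and 77.9 FPKM in control replicates 1, 2 and 3. LOC113635768 had 2.98, 4.24 and 3.64 FPKM in transport replicates 1, 2 and 3, against 6.05, 12.3 and 7.20 FPKM in control replicates 1, 2 and 3, a larger difference at a lower level. The most opposite genes were mdk, the gene of the growth factor midkine (r = -0.986), the uncharacterized LOC113636769 (-0.986) and c2cd3, a centriole gene (-0.984). Midkine had 61.4, 54.2 and 56.6 FPKM in transport replicates 1, 2 and 3, against 42.2, 28.5 and 30.2 FPKM in control replicates 1, 2 and 3. After TMM scaling r weakened to -0.62 for mdk, -0.76 for LOC113636769 and -0.67 for c2cd3, and in each of the 3 genes the groups then overlapped.

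**Figure D5:**
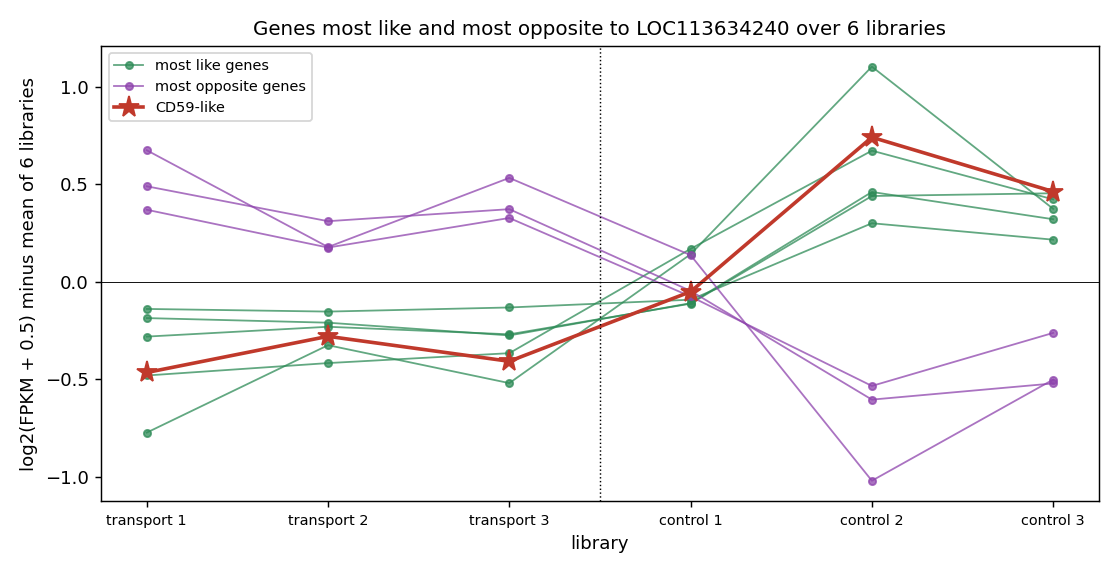
Deviation of log2(FPKM + 0.5) from the mean of the 6 libraries, for LOC113634240 (red stars), the 5 genes with the highest r to it (green) and the 3 with the lowest (purple); libraries are on the horizontal axis, transport left of the dotted line and control right of it. The CD59-like gene and its 5 closest genes are below their own mean in all 3 transport libraries and highest in control replicates 2 and 3. Control replicate 1 of the CD59-like gene also lies slightly below its mean.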

How the data were processed

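Poly(A) RNA was sequenced as paired reads by the authors, with trimming by Cutadapt; the submitters' processing notes name HISAT and StringTie. For versions, genome build and strand setting: not given in the sources used here. Methods text names a human genome, but the study's results count reads mapped to the yellow catfish genome. The table's identifiers are those of Tachysurus fulvidraco. Reads of the parental alleles are not separated. The deposited table holds read counts that the authors did not normalize and FPKM values that the authors scaled to length and depth. A further 12 columns of other samples were not used, and 1 incomplete row of 2452 was dropped. Table counts were 3632651 to 4487002 per library, so the mapped reads that the study states served as library sizes.

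The 1620 genes averaging 0.5 FPKM or more were tested in R 4.3.3 with edgeR 4.0.16 (TMM factors, quasi-likelihood test, Benjamini-Hochberg); DESeq2 1.42.0 and limma 3.58.1 on log2(FPKM + 0.5) were alternatives. On simulated counts for these 1620 genes, the comparison of transport with control recovered 34% of genes given a log2 change of 1 and 82% of genes given a log2 change of 2, with 5 false calls. Genes with the lowest counts were not changed, and the same spread at a given count was set in each group. The wider spread of the real control libraries was therefore not simulated. Libraries of a group differed by far more than sampling noise (chi-square per gene 40.6 to 156 between transport libraries and 312 to 608 between control libraries).

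LOC113634240, the 7 pathway lists and the 8 marker lists (7 with genes in the table) were chosen with earlier results of these data known. Named were genes with complement in their description, list members with an unadjusted p under 0.05 or among the 2 of highest mean FPKM, the 5 genes with the highest and 3 with the lowest r, and 3 neighbours on each side; marker genes were summed. A list member entered by symbol or description, which can be wrong. Alternatives changed the scaling, library size, filter, tool, pseudocount and replicate block and left out each library; TMM-scaled FPKM was added after the data were seen. Plots used matplotlib.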

Additional observations from a re-analysis of the deposited data

How the results depend on the processing

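The log2 fold change of LOC113634240 was -1.19 to -0.76 over the 16 alternatives. The gene was chosen for its difference in these same libraries, so the kept direction was close to given and is no support for it. The values nearest 0 were those of limma, without TMM factors, at -0.77, -0.77 and -0.76 with pseudocounts of 0.5, 0.1 and 1. The number of genes called over the table was 10 in edgeR and 154 in DESeq2, and leaving out a library gave 0 to 65 calls, the most without control replicate 3. Among the genes with complement in their description edgeR called 0, DESeq2 2, and leaving out a library gave 0 to 2 (xpc and c1qtnf4 without control replicate 3). Over the other pathway lists, of which the wider complement list holds c1qtnf4 again, edgeR called 0 and DESeq2 2 (c1qtnf4 and plau). Leaving out a library gave 0 to 1 (c1qtnf4 without control replicate 3). In all these counts c1qtnf4 had passed the filter on mean FPKM only through the control libraries. With the replicate number as a block edgeR called 0 genes. Deviations of same-numbered libraries correlated at -0.17, 0.08 and 0.10 for replicates 1, 2 and 3. Neither the labels nor the methods say whether such libraries share a tank or day, and with 3 libraries a group these values cannot decide it. The unblocked fit was kept.

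Of 20 genes with a printed fold change, 10 kept their direction in every alternative that could be run. With mapped reads alone, LOC113634713 turned to 0.027, LOC113636564 to 0.010 and znf408 to 0.19. In limma with pseudocounts of 0.5, 0.1 and 1, LOC113634713 turned to 0.13, 0.16 and 0.10, LOC113636564 to 0.049, 0.050 and 0.048, znf408 to 0.23, 0.28 and 0.19, and pigb to 0.028, 0.040 and 0.016. Leaving out a library gave -0.13 to 0.53 for LOC113634904, -0.16 to 0.39 for LOC113634906 and -0.17 to 0.44 for LOC113634955, below 0 without transport replicate 1 and without control replicate 2. It gave -0.080 to 0.23 for c1qbp, below 0 without transport replicate 2, and -0.051 to 0.18 for psmc3, below 0 without transport replicate 2 or control replicate 1. It gave -0.047 to 0.52 for irf2, below 0 without control replicate 1, -0.57 to 0.092 for LOC113634713, above 0 without control replicate 3, and -0.27 to 0.19 for znf408, above 0 without transport replicate 3 or control replicate 2. The cause of these changes was not tested. With 3 libraries a group, differences of the size of those in C1q could not be told from the spread between libraries.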
